A study of Mus musculus with 160 samples.

Results

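The neutrophil and monocyte effector genes Mpo, Elane, Prtn3, Ctsg, Lyz2, Ly6c2, Ms4a3, S100a8, S100a9 and Grn were followed through 160 single mouse cells. These 10 genes were taken by name, with earlier results of these data known, and all 10 are among the 23420 rows of the expression table. The cells were 65 induced hematopoietic endothelial cells (iHECs) and 21, 18 and 56 induced hematopoietic progenitor cells (iHPCs) sorted on days 14, 17 and 21 of induction, which the labels count as days 3, 6 and 10 of maturation. All groups have the C57BL/6 strain label and came from pluripotent stem cells made to express Runx1 and Hoxa9, which in the study's embryonic stem cell line is a doxycycline-inducible Runx1-p2a-Hoxa9 cassette in the Rosa26 locus; the labels give the source as ESC or iPSC without saying which for any cell. The iHECs were sorted as CD31+, CD41low, CD45-, c-kit+ and CD201high. The later cells grew on OP9-DL1 stromal feeders, which display a Notch ligand, in medium with IL3, Flt3 ligand and stem cell factor. Day-14 and day-17 cells were taken as CD45+ and negative for a lineage cocktail that includes Gr1 and F4/80. Day-21 cells were taken as Ter119-, CD45+, c-kit+ and CD127+, so Gr1 and F4/80 did not enter that gate whereas the IL7 receptor chain CD127 did.

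Neutrophils and monocytes arise from a shared bone marrow progenitor that passes through a promyelocyte-like stage, in which the primary, or azurophil, granule is filled. Mpo encodes myeloperoxidase, which makes hypochlorous acid, and Elane, Prtn3 and Ctsg encode the serine proteases neutrophil elastase, proteinase 3 and cathepsin G that are packed beside it. Transcripts of these 4 genes peak early and fall as cells mature, when genes of the later granules and S100a8 and S100a9, which form calprotectin, take over. Lyz2 encodes the lysozyme of macrophages and neutrophils, Grn the secreted and lysosomal protein progranulin, Ly6c2 a surface protein that marks inflammatory monocytes and is bound by Gr1 antibodies, and Ms4a3 a membrane protein of granulocyte-monocyte progenitors. Flt3 encodes the receptor tyrosine kinase of multipotent, lymphoid and some myeloid progenitors. Cathepsin G is also a mast cell granule protease.

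In the mouse genome (GRCm38, the build named in the labels as mm10; GENCODE M21 annotation) Prtn3 (chr10:79874476-79883174) and Elane (chr10:79886247-79888215) lie on the plus strand with 3.1 kb between them, and Mpo lies at chr11:87793581-87804413. Ctsg (chr14:56099881-56102574, minus strand) sits in a cluster of related proteases, 14.6 kb from Mcpt8, 37.6 kb from Mcpt4 and 15.1 kb from Gzme. The 300-base promoter windows of the 4 granule genes, from 250 bases before to 50 after the RefSeq start site (GRCm38.p6), are shown because Mpo, Elane and Prtn3 were found together at day 14 whereas Ctsg was not. They lie at chr11:87793534-87793833 (plus strand) for Mpo, chr10:79886062-79886361 (plus strand) for Elane, chr10:79879417-79879716 (plus strand) for Prtn3 and chr14:56102525-56102824 (minus strand) for Ctsg. Each is written 5′ to 3′ along the gene, and capitals mark GAGGAAG, a purine-rich sequence of the type bound by the ETS factor PU.1.
Mpo: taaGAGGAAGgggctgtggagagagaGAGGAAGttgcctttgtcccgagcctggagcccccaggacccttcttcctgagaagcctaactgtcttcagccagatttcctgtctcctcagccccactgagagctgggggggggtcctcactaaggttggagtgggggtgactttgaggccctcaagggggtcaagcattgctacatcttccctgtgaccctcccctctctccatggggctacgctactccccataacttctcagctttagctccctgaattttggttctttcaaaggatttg
Elane: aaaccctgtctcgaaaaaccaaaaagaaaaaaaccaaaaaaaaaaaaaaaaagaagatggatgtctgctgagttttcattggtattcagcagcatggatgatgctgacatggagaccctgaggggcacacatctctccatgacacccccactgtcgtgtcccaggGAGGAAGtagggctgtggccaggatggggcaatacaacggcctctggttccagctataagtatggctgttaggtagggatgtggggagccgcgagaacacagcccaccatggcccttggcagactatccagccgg
Prtn3: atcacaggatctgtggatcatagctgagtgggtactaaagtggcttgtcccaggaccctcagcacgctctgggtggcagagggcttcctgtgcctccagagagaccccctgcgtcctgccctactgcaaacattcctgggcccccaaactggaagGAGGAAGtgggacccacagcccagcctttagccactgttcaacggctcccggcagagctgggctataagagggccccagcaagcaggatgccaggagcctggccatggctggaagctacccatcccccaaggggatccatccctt
Ctsg: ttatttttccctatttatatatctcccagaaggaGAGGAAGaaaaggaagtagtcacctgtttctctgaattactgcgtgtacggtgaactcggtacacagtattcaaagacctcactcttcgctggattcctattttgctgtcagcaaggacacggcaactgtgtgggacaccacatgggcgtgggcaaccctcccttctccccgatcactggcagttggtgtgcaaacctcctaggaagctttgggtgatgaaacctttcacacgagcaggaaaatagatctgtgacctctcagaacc
Searched on both strands, GAGGAAG starts 247 and 224 bases before the Mpo start site, 85 before that of Elane, 95 before that of Prtn3 and 216 before that of Ctsg. Counting Ly6c2 and S100a8 as well, the windows of 6 of the 10 genes hold it, against 13.6% of all 32851 windows of this length. The 5 other motifs searched were TTGCNNAA (C/EBP type; 2 of 10 genes, 10.8% of all windows), TGTGGT (RUNX type; 4 of 10 and 16.8%), TAACNG (MYB type; 2 of 10 and 23.3%), AGATAA (recognised by GATA factors, in 1 of 10 and 11.2%) and TGACTCA (AP-1 type; 0 of 10 and 5.20%). Within the printed windows TGTGGT occurs in Ctsg and TAACNG in Mpo and Elane. Prtn3 holds only GAGGAAG among these. The RefSeq start sites of Prtn3, Mpo and Elane lie inside the spans given for these genes above, so bases before those sites also fall within the annotated genes. The motifs were chosen after the expression values were seen, and a match is only a match of letters.

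Values are TPM (transcript abundance per fixed total), which are scaled for transcript length and to the total of each cell, so levels can be set beside each other between genes. A gene was counted as detected above 1 TPM, and group levels are the mean ± SD between cells of log2(TPM + 1). Each group is a single sample because no culture or animal is named for the cells; the values therefore carry no p-value, and the percentages have exact Clopper-Pearson 95% intervals that cover counting error only. Read depth is unknown. Genes detected per cell ranged from 3309 to 7533 in iHECs, 3103 to 9333 at day 14, 6536 to 9658 at day 17 and 3188 to 7950 at day 21.

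Several cells went against their sort gate or resembled another cell closely. Ptprc, which encodes CD45, was at 53.9 TPM in iHEC cell 64 and at or below 1 TPM in day-14 cells 4 and 17, day-17 cell 9 and day-21 cell 49. Day-14 cells 4 and 17 instead had the pluripotency gene Pou5f1 at 972 and 698 TPM. Day-17 cell 9 had the epithelial keratin gene Krt8 at 2306 TPM. Day-14 cell 15 had the fewest genes in its group (3103, group median 8200) and had both Ptprc (67.5 TPM) and Krt8 (621 TPM). Of the pairs of cells within a group, 4 in iHECs, 4 at day 14 (8 with 9, 14 with 21, 5 with 6 and 13 with 20) and 1 at day 17 correlated at 0.95 or above across genes. At day 14 the next pair was at 0.947, so those pairs do not form a class apart. Several results, among them the day-14 correlations of Mpo, Prtn3, Elane and Lyz2 with Flt3, are given with and without some of these cells. Group levels, shares, list calls and the other correlations include all of them unless stated. Stromal genes, which would mark feeder cells, were near 0: their summed level over 7 genes ranged from 0 to 48.5 TPM over all cells.

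The 4 azurophil granule genes differed in the groups in which they were commonly detected. Mpo, Elane and Prtn3 were common at day 14, and Prtn3 alone was broad at day 17. Ctsg was detected in 40 of 56 day-21 cells, and Mpo and Elane were at 0 in all of that group. Only day-17 cells 1 and 18 had all 4 genes above 1 TPM. Il7r, which encodes CD127, was at 0 in those 2 cells, and the day-21 gate required CD127. The day and the gate therefore cannot be told apart for the lack of Mpo and Elane at day 21. Mpo was at 0 in all 65 iHECs, which allows a share of up to 4.62%. At day 14 it was above 1 TPM in 17 of 21 cells (81.0%, interval 58.1 to 94.6) with a lowest value of 0, a median of 158 and a highest of 1378 TPM. At day 17 it was above 1 TPM in 4 of 18 cells (22.2%, interval 6.41 to 47.6), with a median of 0.264 and a highest of 5725 TPM. It was at 0 in all 56 day-21 cells, which allows up to 5.36%. On the log2 scale the means were 5.94 ± 3.77 (n = 21 cells) at day 14 and 1.54 ± 3.45 (n = 18) at day 17, and their gap of 4.41 exceeded both SDs. The ranges of these groups overlap at both ends, since some day-14 cells had Mpo near 0 and 2 day-17 cells carried as much as the higher day-14 cells.

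Elane followed the same outline at lower levels. It was at 0 in every iHEC and every day-21 cell and above 1 TPM in 12 of 21 day-14 cells (57.1%, interval 34 to 78.2) and 4 of 18 day-17 cells (22.2%). Its day-14 median was 4.67 TPM and its highest value 110 TPM, so Elane transcripts stood well below Mpo transcripts on the per-length scale. Means of log2(TPM + 1) were 2.60 ± 2.48 at day 14 and 0.99 ± 2.29 at day 17, a gap within the spread between cells.

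Prtn3, although it neighbours Elane, was detected in more cells and in more of the groups. Among iHECs 5 of 65 carried it (7.69%, interval 2.54 to 17). It was in 19 of 21 cells at day 14 (90.5%, interval 69.6 to 98.8) and 17 of 18 at day 17 (94.4%, interval 72.7 to 99.9), and in 11 of 56 at day 21 (19.6%, interval 10.2 to 32.4). Medians were 0, 210, 37.6 and 0 TPM in that order. The mean log2 level was highest at day 14 (6.91 ± 2.78), then day 17 (5.32 ± 2.24), day 21 (0.80 ± 1.71) and iHECs (0.33 ± 1.20). The differences from iHECs to day 14 (6.58) and from day 17 to day 21 (4.52) were larger than the SDs of both groups, and that between days 14 and 17 was not. In iHEC cell 64, the cell with Ptprc, Prtn3 was at 70.1 TPM, and without that cell 4 of 64 iHECs had it, none above 44.6 TPM.

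Ctsg ran the other way. It was at 0 in all iHECs and in all 21 day-14 cells, the latter allowing a share of up to 14.3%. It was found in 2 of 18 cells at day 17 (11.1%, interval 1.38 to 34.7), then in 40 of 56 at day 21 (71.4%, interval 57.8 to 82.7). Its highest value was 4790 TPM and its day-21 median 6.33 TPM, and the day-21 mean of 4.66 ± 4.57 had the widest spread of any member in any group. Day-17 cells 1 and 18 were the only cells of the 160 with both Mpo and Ctsg.

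Outside the azurophil set, Lyz2, Ly6c2 and Ms4a3 were each detected in a minority of the cells of every group. Lyz2 was detected in 15.4% of iHECs (10 of 65, interval 7.63 to 26.5), 38.1% of day-14 cells (8 of 21, interval 18.1 to 61.6) and 44.4% of day-17 cells (8 of 18, interval 21.5 to 69.2), and was at 0 in all cells of day 21. Where it was detected its median was 87.2 TPM in iHECs, 43.3 at day 14 and 28.3 at day 17. Its highest iHEC value, 3992 TPM, was in cell 64, and the highest among the other 64 iHECs was 206 TPM. None of the gaps between groups exceeded the spread between cells. Its close copy Lyz1 was listed at 0 in every cell.

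Ly6c2 was at 0 in all iHECs and found in 1 day-14 cell (10.3 TPM). It was found in 33.3% of day-17 cells (6 of 18, interval 13.3 to 59) and 17.9% of day-21 cells (10 of 56, interval 8.91 to 30.4), where it reached 1292 TPM. The Gr1 antibody of the day-14 and day-17 gate can bind the Ly6c2 product, and its part in these shares was not tested. Reads of Ly6c2 and its near copy Ly6c1 may be shared out between them; Ly6c1 was above 1 TPM in 2 iHECs and 4 day-21 cells. Ms4a3 was above 1 TPM in 4 of 21 day-14 cells, at 7.74 to 109 TPM, in 2 of 18 day-17 cells and in no iHEC or day-21 cell.

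The calprotectin genes were close to silent in the sorted cells, and the part of the sort gates in this was not tested. S100a9 was listed at 0 in all 160 cells. S100a8 was found in 4 iHECs (6.15%, interval 1.70 to 15), at 17.1 to 173 TPM, and was at 0 in every iHPC, which allows up to 14.3%, 16.7% and 5.36% on days 14, 17 and 21. Of those 4 iHECs, cells 15 and 16 are a near-identical pair. Other genes of the S100 family were abundant in the same cells: S100a10 was detected in every cell of the 4 groups, and S100a11 in 63 iHECs and every iHPC. Of the 12 genes of the family in the list (S100a8 and S100a9 included), 7 were called higher at day 21 than at day 17, against 5.78% of all rows. The calls, explained below, subtract a median shift of -0.74. Those of S100a1, S100a5, S100a10 and S100a11 rest on it, their own differences being 0.64, 0.44, 0.76 and 0.49. The own differences of S100a4, S100a6 and S100a13 were 1.57, 3.07 and 1.57. S100a8 and S100a9 were at 0 on both days.

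Grn was the most widely detected member. It was detected in 52.3% of iHECs (34 cells, interval 39.5 to 64.9), 95.2% of day-14 cells (20), 94.4% of day-17 cells (17) and 80.4% of day-21 cells (45, interval 67.6 to 89.8), with medians of 2.20, 43, 83.4 and 75.3 TPM. Its means were 3.34 ± 3.40, 5.04 ± 1.57, 6.39 ± 1.92 and 5.34 ± 3.09, and no neighbouring pair in the order of these means differed by more than both SDs. The iHEC and day-21 groups each held a share of cells at 0 beside cells with high levels, up to 350 and 601 TPM.

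**Figure D1:**
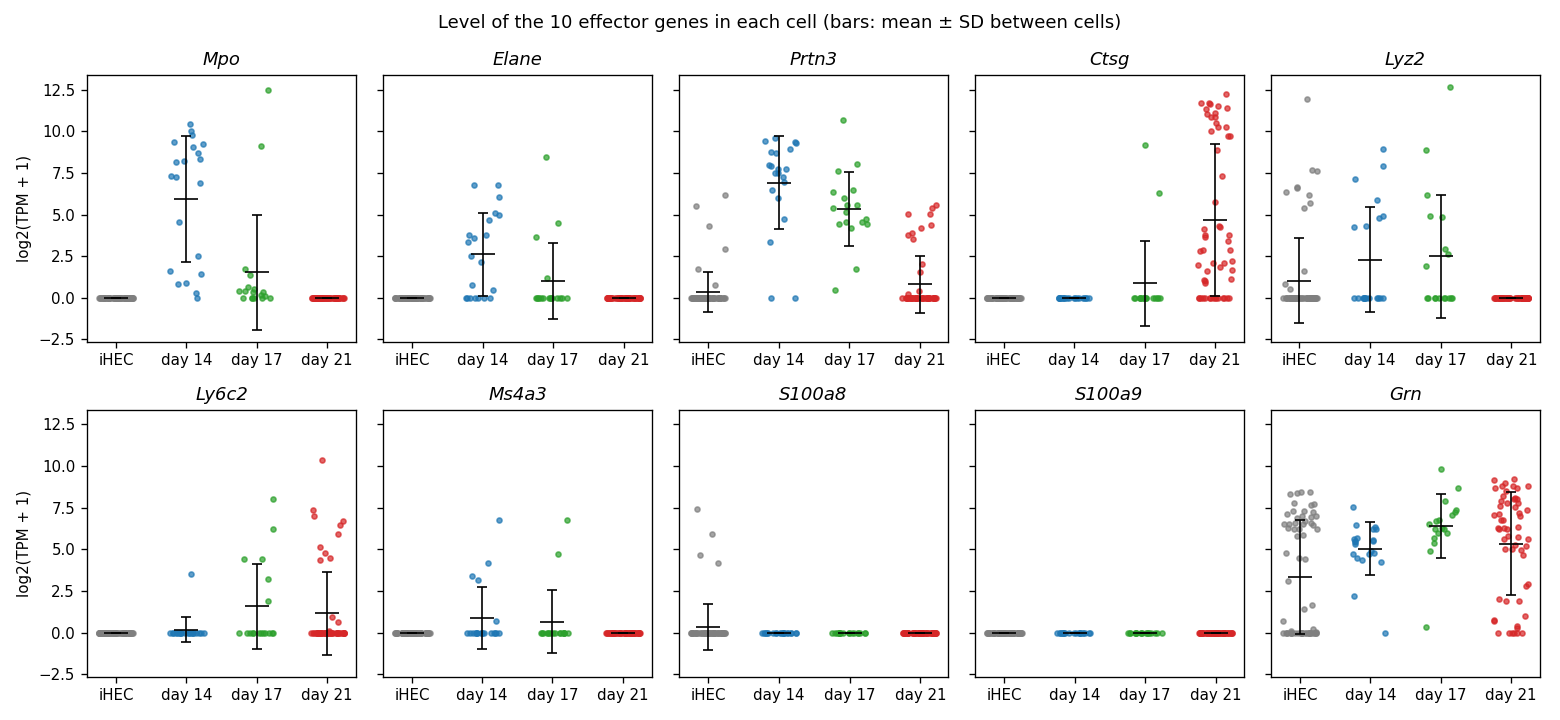
Each panel plots log2(TPM + 1) of 1 gene in every cell of the 4 groups (points spread sideways at random), with bars for the mean ± SD between cells. Mpo and Elane are seen at days 14 and 17, Prtn3 mainly at days 14 and 17, Ctsg mainly at day 21, S100a8 in 4 iHECs and S100a9 in no cell.

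To set the changes beside those of the whole table, the median shift of 9674 broadly expressed genes (detected in over 30 cells) was subtracted from each difference of group means, and a relative difference of at least 1 on the log2 scale was called higher or lower. From iHECs to day-14 cells this median shift was 0.93. Relative to it 3 of the 10 members were higher, against 11.5% of all 23420 rows: Prtn3 by 5.65, Mpo by 5.02 and Elane by 1.68. S100a8 was the 1 member called lower, against 16.4% of all rows, by a relative difference of -1.27 that rests on the 4 iHECs with S100a8 and on the shift of 0.93 itself, its own means being 0.34 and 0. From day 14 to day 17 the median difference was 0.28. Mpo (relative difference -4.68), Elane (-1.89) and Prtn3 (-1.86) were lower, 3 of 10 against 3.59% of all rows, and Ly6c2 (1.13) and Grn (1.08) were higher, 2 of 10 against 4.06%. From day 17 to day 21 the median difference was -0.74. Ctsg was higher by 4.54, 1 of 10 against 5.78% of all rows, and Prtn3 (-3.78) and Lyz2 (-1.76) were lower, 2 of 10 against 5.56%. Only Prtn3, Ctsg and Grn among the members were themselves broadly expressed. Among the 9674 such genes the shares called higher and lower were 27.3% and 24.4% for the first step, 9.03% and 7.09% for the second and 10.3% and 13.1% for the last. The median relative difference over the 10 members was 0.14, -0.28 and -0.08 for the 3 steps, against -0.93, -0.28 and 0.74 over all rows. Leaving out day-17 cells 1 and 18, described further on, changed the day-14 to day-17 step to 5 members lower and 0 higher. With the log2 of the mean TPM in place of the mean of log2 values, which weights the highest cells, the same step gave 4 higher and 1 lower (Prtn3, -1.26), Mpo being at -0.24 and Elane at -0.26. By that measure the mean over the 10 members turned from -0.68 to 0.99. The shares of all rows called were not computed without cells 1 and 18 or with log2 of the mean TPM. The counts under these settings therefore have no share to be set beside.

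Among the genes that build or guard the granule, 6 of 8 listed partners were higher at day 14 than in iHECs and 0 lower, with a median relative difference of 1.89 against -0.93 over all rows. Srgn, the proteoglycan core that holds granule proteases, went from 11 of 65 iHECs to 20 of 21 cells at day 14. Serpinb1a, an inhibitor of elastase-type proteases, went from 14 of 65 to 19 of 21 cells, and Ctsc, the protease that activates the granule serine proteases, from 38 of 65 to 20 of 21. Cst7, Clec5a and Hp were the others called higher. At day 17 there were 1 higher and 3 lower, and at day 21 3 higher and 0 lower. Srgn, Serpinb1a and Ctsc stayed in 18 of 18 day-17 cells each, and Srgn and Serpinb1a in 56 of 56 day-21 cells, whereas Hp went from 15 of 21 to 3 of 18 to 1 of 56 cells and Clec5a from 13 to 2 to 0. Prss57, a further azurophil-type protease gene that lies 95.3 kb from Elane, was found in 4.76% of cells at day 14, 61.1% at day 17 and 46.4% at day 21.

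Genes of the later neutrophil granules were mostly missing from the sorted cells. Of 12 such genes, Camp, Ngp, Chi3l3, Fcnb and Retnlg were above 1 TPM in no cell of any group, and Lcn2 in 1 day-17 cell. At day 14 Mmp8 (10 of 21 cells) and Cxcr2 (11 of 21) were called higher than in iHECs and Ltf, at 0 in all 21 cells, lower. The Ltf call rests on the median shift subtracted, its own means being 0.17 in iHECs and 0 at day 14. Mmp8 and Cxcr2 were the 2 called lower at day 17, and none of the 12 was called at day 21. Gr1+ and F4/80+ cells were gated out at days 14 and 17, and day 21 was gated on c-kit and CD127. The study reports Gr1+ myeloid cells in the day-21 culture, so these shares describe the sorted cells and not the whole culture. The part of the gates in them was not tested. Monocyte and macrophage genes were more common in the day-14 cells: 6 of 14 were higher and 2 lower than in iHECs, with Csf1r, the receptor for M-CSF, in 19 of 21 cells, Cd68 in 20, and Ccr2 and Emr1, which encodes F4/80, in 12 each. Ctss and Fcgr3 were the others called higher. At day 17, 6 of the 14 were lower and 2 higher, Csf1r being detected in 5 of 18 cells, and at day 21 3 were higher and 3 lower. Emr1 transcripts were thus present in cells sorted as F4/80-negative.

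The transcription factors that act on these genes were present at day 14 in different shares. Sfpi1, which encodes PU.1, was above 1 TPM in 20 of 21 cells, Cebpb in 21, Myb in 19, Irf8 in 17, Cebpa and Gfi1 in 11 each, and Cebpe, the factor of later granules, in 1. The G-CSF receptor gene Csf3r was above 1 TPM in 4 of 21 cells. Of the 8 listed factors 4 were higher and 1 lower at day 14 than in iHECs, with 1 higher and 3 lower at day 17 and 0 higher and 2 lower at day 21, and Cebpa was detected in no iHEC and no day-21 cell. Of 6 subunits of the phagocyte NADPH oxidase, 4 were higher and 1 lower at day 14, 1 was higher at day 17, and 1 was higher and 2 were lower at day 21. The catalytic subunit Cybb was detected in 4 of 21 day-14 cells.

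Genes of other cell types moved at the same steps, and their part in the members' levels was not tested. The 11 lymphoid progenitor genes were mostly called at day 17 (6 higher, 0 lower), after 1 higher and 1 lower at day 14, with 4 higher and 1 lower at day 21. The 13 mast cell and basophil genes were called 0 higher and 1 lower at day 14. Their calls were 1 and 0 at day 17 and 9 and 0 at day 21. The 13 proteases of the Ctsg locus gave 0 and 0, 0 and 0, and 7 and 0. Ctsg itself is among those 7, and both lists hold Mcpt1, Mcpt4 and Cma1. Endothelial genes, which mark the iHECs, were called lower at day 14 in 6 of 6 cases and once more at each later step. For cytotoxic and innate lymphoid genes (8) the calls were 0 higher and 1 lower, then 1 and 0, then 5 and 0, the last including Gzmb. Myeloid cytokine receptors (7) gave 2 and 3, 1 and 2, and 3 and 0. In the same order the S100 family (12, S100a8 and S100a9 included) gave 1 and 5, 0 and 2, and 7 and 0. The Ms4a family (9, Ms4a3 included) gave 1 and 0, 3 and 1, and 2 and 0. The dendritic cell genes (7) gave 1 and 1, 0 and 0, and 1 and 0. Erythroid (5) genes gave only 1 higher at day 21 and megakaryocyte genes (6) 2 lower at day 14 and 1 at day 17. B lymphoid genes (6) gave 1 lower, 1 higher and 1 lower, and the 7 stromal genes none. The paralogs Lyz1 and Ly6c1 gave 1 lower (Ly6c1) at day 14 and 1 higher at day 21 (Ly6c1). Both calls rest on the median shift subtracted, the Ly6c1 means being 0.14 in iHECs, 0 at days 14 and 17 and 0.28 at day 21. Other calls of small differences in these lists can rest on it in the same way.

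Within the 21 day-14 cells the members were detected in overlapping sets. A cell had a median of 4 of the 10 members above 1 TPM (range 1 to 6), against 1 (0 to 4) in iHECs, 3 (0 to 8) at day 17 and 2 (0 to 4) at day 21. Mpo and Prtn3 were both above 1 TPM in 16 cells, Mpo alone in 1, Prtn3 alone in 3 and neither in 1. All 12 cells with Elane had Prtn3, 11 of them had Mpo, and all 4 with Ms4a3 had Elane. Detection in the same cell went with only moderate agreement of levels: over the 21 cells the Pearson correlation of log2(TPM + 1) was 0.50 for Mpo with Prtn3, 0.57 for Elane with Prtn3 and 0.30 for Mpo with Elane. The points are cells of 1 sample, and the number of genes detected per cell itself correlated with Prtn3 (0.54) and Elane (0.42), and hardly with Mpo (0.02). Cell 15, with few genes, had Mpo at 325 TPM and no Prtn3. Without it the Mpo with Prtn3 correlation was 0.72, and without cells 4 and 17 it was 0.30.

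Lyz2 and Grn did not follow Mpo. The 4 cells with the most Lyz2 were cell 18 (485 TPM), cell 15 (240), cell 13 (141) and cell 20 (57), and Mpo in them was 0.202, 325, 1.69 and 4.59 TPM. The other 4 cells with Lyz2, at 17.7 to 29.7 TPM, had Mpo at 22.1 to 413 TPM. Correlations with Mpo were -0.27 for Lyz2 and -0.45 for Grn. Without cells 4, 15 and 17 that of Lyz2 was -0.56. Cells 13 and 20 are a pair that correlated at 0.959 across all genes, so their shared profile counts for less than that of separate cells. Lyz2 went with Csf1r instead (0.50 over 21 cells), and Csf1r was at 288 TPM in cell 13 and 157 TPM in cell 20, its highest values at day 14.

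**Figure D2:**
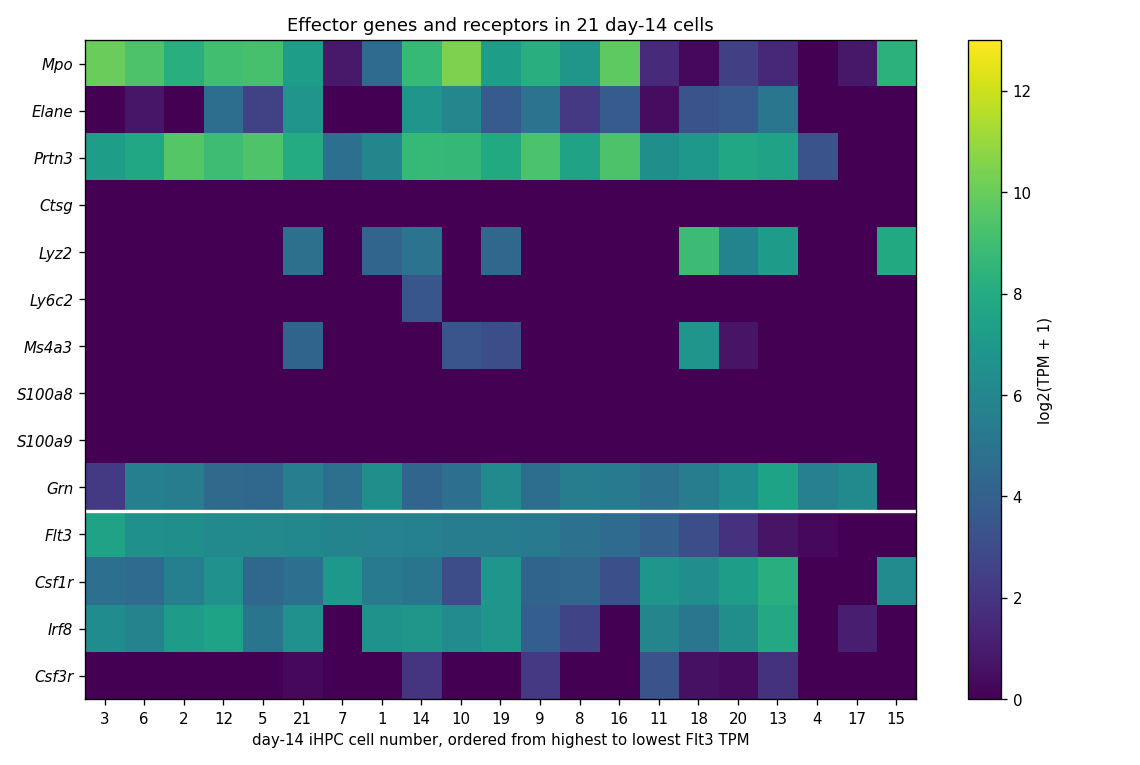
Columns are the 21 day-14 cells ordered by Flt3 TPM, rows the 10 members and, under the white line, Flt3, Csf1r, Irf8 and Csf3r, and color is log2(TPM + 1). Mpo and Prtn3 fill most columns on the left, Lyz2 is highest in cells 18, 15 and 13 near the right end, and the rows of Ctsg, S100a8 and S100a9 are at 0.

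Flt3 was above 1 TPM in 17 of the 21 day-14 cells, and Mpo, Elane and Prtn3 were found in many of those cells. Prtn3 was above 1 TPM in all 17, at 25.9 to 770 TPM (median 241). Mpo was above 1 TPM in 15 of the 17 (median 279 TPM) and Elane in 11 (median 9.20 TPM). The 4 cells without Flt3 were cells 4, 13, 15 and 17, of which cells 4 and 17 had pluripotency genes and no Ptprc and cell 15 few genes. In these 4 Prtn3 was at 9.07, 178, 0 and 0 TPM and Mpo at 0, 1.69, 325 and 0.787 TPM. Cell 13, which did not stand apart in these ways, also had Elane at 33.8 TPM. With so few cells lacking Flt3, the counts cannot show how often the granule genes occur apart from it. Split by level instead, the 13 cells with Mpo above 100 TPM had a median Flt3 of 51.6 TPM and the other 8 of 5.19 TPM; the split was placed after the values were seen, between 22.1 and 117 TPM.

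The mean log2 level of Mpo, Elane, Prtn3 and Ctsg correlated with that of Flt3 at 0.66 over the 21 cells (Spearman 0.50). Ranked with 9818 genes detected in at least 5 of the cells, Flt3 came 145th for this measure. Taken singly, the correlation with Flt3 was 0.63 for Mpo, 0.71 for Prtn3, 0.17 for Elane, -0.07 for Grn and -0.41 for Lyz2. Some of these values rest on the cells that stood apart: without cells 4, 15 and 17 the mean correlated with Flt3 at 0.34, Prtn3 at 0.16 and Elane at -0.27. Without the same cells Mpo correlated with Flt3 at 0.68 and Lyz2 at -0.62, and without cells 4 and 17 alone Mpo was at 0.48. Among the remaining 18 cells the low end of Flt3 was held by cells 13, 20 and 18 (0.622, 2.67 and 7.70 TPM), the cells with little Mpo and the most Lyz2, while Prtn3 stayed at 123 to 210 TPM in them. Cells 7 and 11 broke the pattern, with Flt3 at 58.2 and 14.6 TPM and Mpo at 0.872 and 2.06 TPM. These are descriptions over cells of 1 sample.

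**Figure D3:**
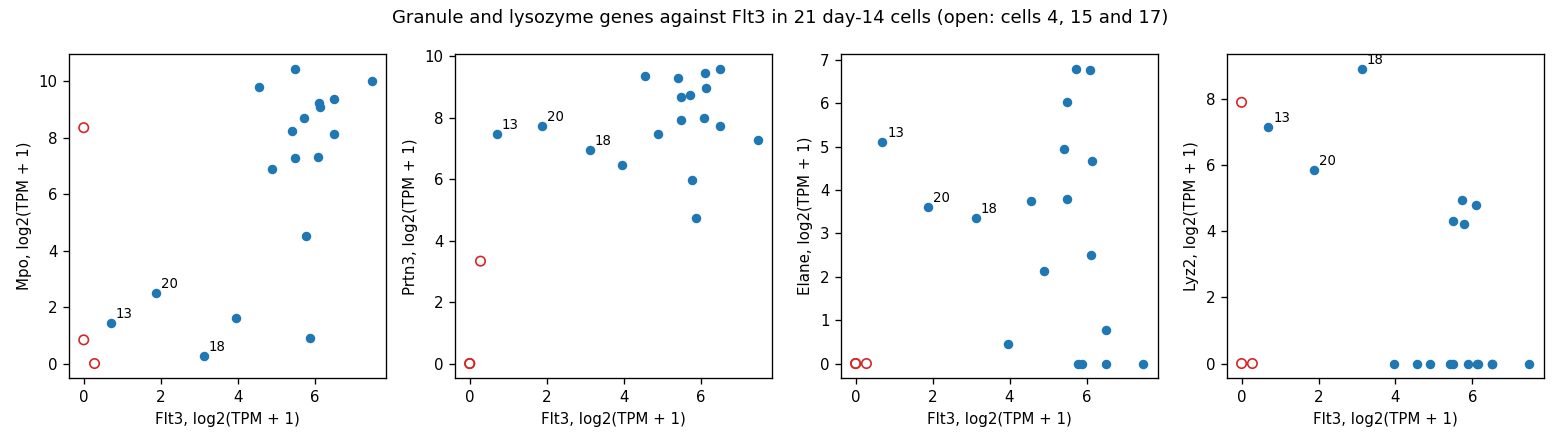
Each point is 1 of 21 day-14 cells, with Flt3 on the horizontal axis and Mpo, Prtn3, Elane or Lyz2 on the vertical axis, both as log2(TPM + 1); open points are cells 4, 15 and 17 and the numbers mark cells 13, 18 and 20. Cells 13, 18 and 20 combine low Flt3 and low Mpo with high Lyz2, and their Prtn3 is as high as in many cells with more Flt3.

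The genes whose levels most resembled the granule mean over these 21 cells, among genes detected in at least 5, were BC005764 (0.86), Tuba8 (0.84), Anks1 (0.83), Frat2, Letmd1, Rab10, Pitpna, Prrc1, Gimap1 and Irak4 (0.79). The lowest were Snrpn (-0.79), Mageb16 (-0.78), Taf7, Ppib and Mapk13 (-0.69). Without cells 4, 15 and 17 the first 10 lay between 0.63 and 0.87 and the last 5 between -0.74 and -0.54.

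At day 17 the members were concentrated in 2 of 18 cells. Cells 1 and 18 each had 8 of the 10 members above 1 TPM, all but S100a8 and S100a9, while the other 16 cells had at most 5. In cell 1 Mpo was at 5725 TPM, Prtn3 at 1623, Ctsg at 587, Lyz2 at 459, Elane at 352, Ly6c2 at 263 and Ms4a3 at 107 TPM. In cell 18 Lyz2 was at 6494 TPM, Mpo at 553, Prtn3 at 258, Ctsg at 77.5, Ly6c2 at 73.9, Ms4a3 at 25.5 and Elane at 11.4 TPM. These were the only day-17 cells with Ctsg or Ms4a3, and the highest Mpo among the other 16 was 2.36 TPM.

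The same 2 cells differed from the rest in their other genes. Csf1r was at 191 and 343 TPM in cells 1 and 18 and at most 17 TPM in the others. Csf3r was at 17.2 and 33.4 TPM and at 0 in the other 16, and Cybb was at 74.1 and 579 TPM against at most 0.435. Of 14 monocyte and macrophage genes 11 were above 1 TPM in each, against a median of 3.5 (range 1 to 7) in the others, and of 12 later neutrophil genes 1 in each. Conversely Il7r, which encodes CD127, and Cd7 were at 0 in both and above 1 TPM in 15 of the other 16 cells, at medians of 46 and 339 TPM. Flt3 was at 4.65 and 0.372 TPM, against a median of 71.0 TPM in the others.

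Mast cell proteases did not accompany Ctsg here: Mcpt1, Mcpt4, Cma1, Mcpt8 and Gzmb were listed at 0 in both cells. Gata2 was at 6.78 and 4.60 TPM. The numbers of genes detected, 8543 and 7871, lay within the range of the other day-17 cells.

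In the other 16 day-17 cells Prtn3 and Grn were the members detected most widely. Prtn3 was above 1 TPM in 15, the exception being cell 9 with its keratin transcripts and no Ptprc, and its median was 30.4 TPM with a highest value of 194 TPM. Prtn3 was above 1 TPM in the same 15 cells that had Il7r and Cd7, so proteinase 3 transcripts and those of these lymphoid genes were found within single cells. Its correlation with Flt3 was -0.05 over the 18 cells, 0.59 without cells 1 and 18, and 0.057 without cell 9 as well, so the larger value rested on cell 9. Lyz2 was above 1 TPM in 6 of the 16 cells, at no more than 71.1 TPM, and Ly6c2 in 4, at no more than 20.5 TPM. Grn was above 1 TPM in 15, at a median of 75.6 TPM.

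**Figure D4:**
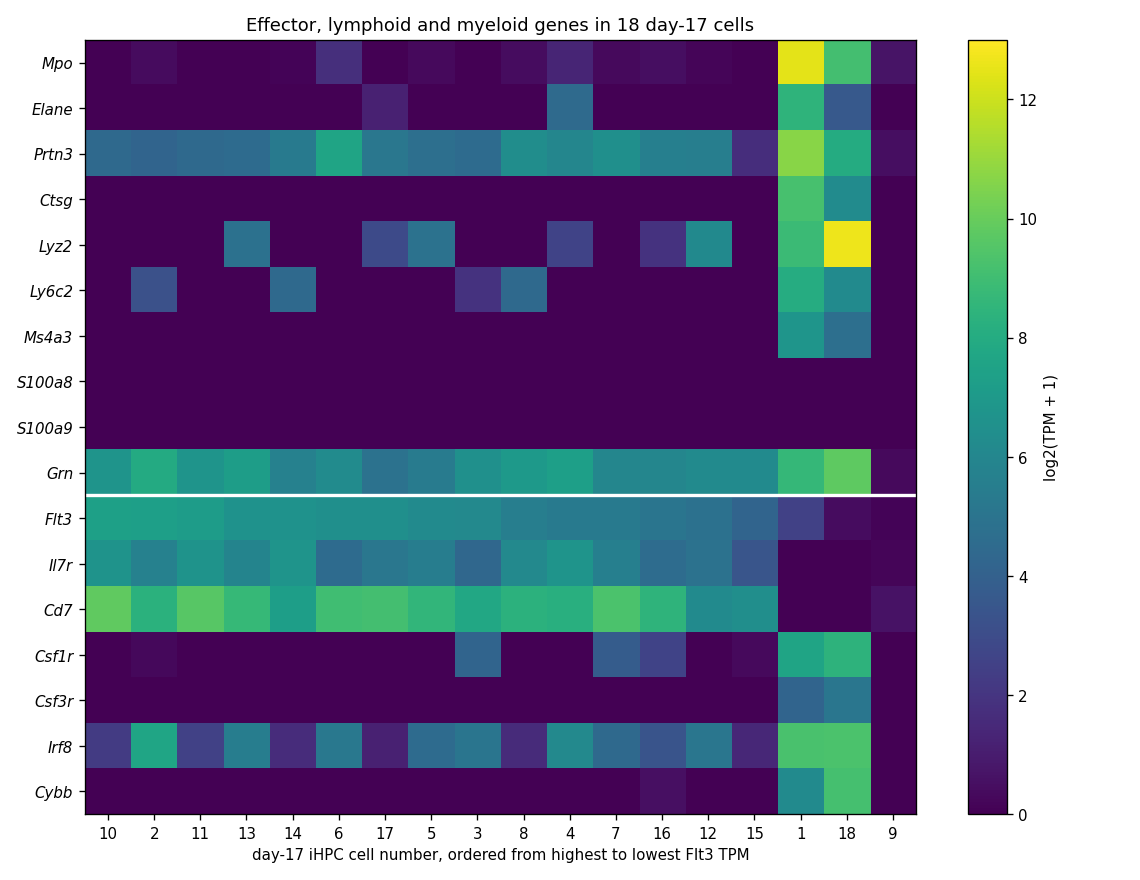
Columns are the 18 day-17 cells ordered by Flt3 TPM, rows the 10 members and, under the white line, Flt3, Il7r, Cd7, Csf1r, Csf3r, Irf8 and Cybb, and color is log2(TPM + 1). Cells 1 and 18 hold 8 members and the myeloid receptors and lack Il7r and Cd7, and the remaining cells hold Prtn3 and Grn beside Flt3, Il7r and Cd7.

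At day 21 Ctsg fell into a high and a low range that went with Gata2, a transcription factor gene of mast cells and progenitors. Gata2 was above 10 TPM in 22 of 56 cells, with no value between 9.18 and 66.0 TPM; this split was set after the values were seen. In those 22 cells Ctsg had a median of 1655 TPM and was above 50 TPM in 20. The exceptions were cell 1 with Ctsg at 2.66 TPM and cell 3, in which it was at 0 while Mcpt4 was at 45517 TPM. Without cell 49, which lacked Ptprc and had Ctsg at 1443 TPM, Ctsg was above 50 TPM in 19 of 21. In the other 34 cells Ctsg was above 1 TPM in 19 and never above 18.8 TPM.

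The cells rich in Ctsg carried the mast cell proteases encoded beside it. In the 22 cells with Gata2 the median was 15876 TPM for Mcpt4, 9346 for Cma1, 6723 for Mcpt1, 15152 for Gzmb, 10662 for the carboxypeptidase gene Cpa3 and 293 for Mcpt8. Ctsg amounted to a median of 3.87% of the summed TPM of Mcpt1, Mcpt4, Cma1 and Gzmb, so it was a minor transcript of that set. In the other 34 cells those 4 proteases were found too, at medians of 10.1 (Mcpt1), 19.98 (Mcpt4), 9.25 (Cma1) and 35.4 TPM (Gzmb), and all 40 cells with Ctsg above 1 TPM had all 4. Low Ctsg thus went with low mast cell proteases in these cells (Cma1 was detected in 31 of the 34), and their part in it was not tested. Over the 56 cells Ctsg correlated at 0.90 with Mcpt1, 0.88 with Mcpt4 and -0.72 with Flt3.

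Prtn3 and Ly6c2 lay on the other side. The 11 day-21 cells with Prtn3 above 1 TPM all had Flt3 (17.9 to 77.9 TPM), none had Gata2 above 9.18 TPM and their Ctsg was at most 17.7 TPM. The 10 cells with Ly6c2 likewise all had Flt3 (18.9 to 125 TPM), none had Gata2 above 4.95 TPM, and 4 of them had Prtn3. Grn was above 1 TPM in all 22 cells with Gata2 above 10 TPM (median 260 TPM) and in 23 of the other 34 (median 27.7 TPM). Unlike at day 14 and day 17, where FcεRIα-positive cells were gated out, the day-21 gate did not include that lineage marker. The day and the gate therefore cannot be told apart.

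**Figure D5:**
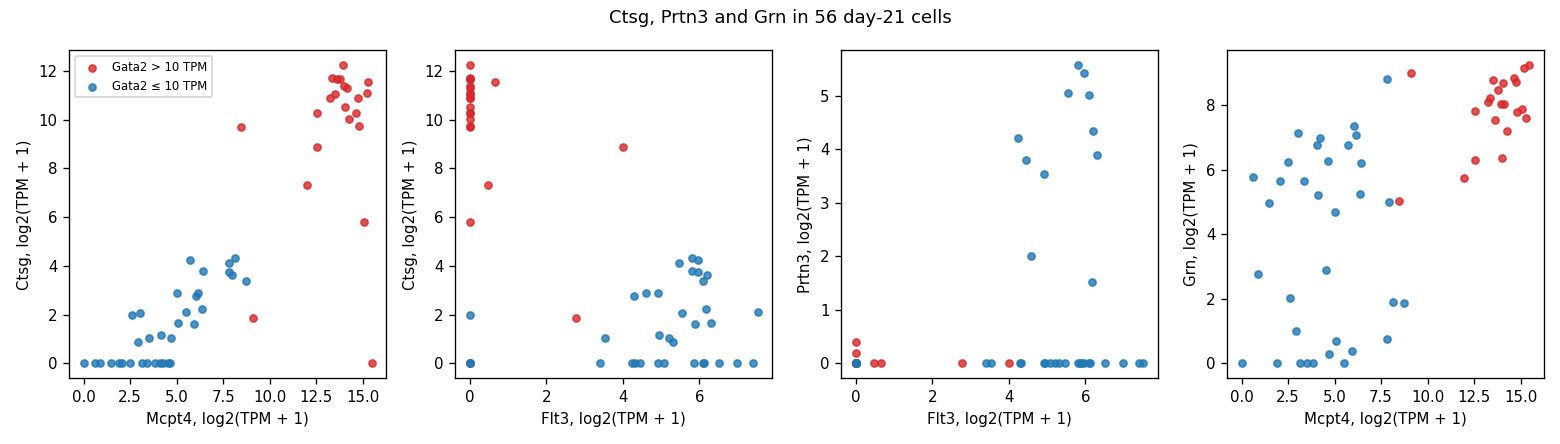
Each point is 1 of 56 day-21 cells on log2(TPM + 1) axes, in red where Gata2 was above 10 TPM (22 cells) and in blue otherwise (34 cells); the panels set Ctsg against Mcpt4, Ctsg against Flt3, Prtn3 against Flt3 and Grn against Mcpt4. Ctsg above 18.8 TPM is seen in red points, and Prtn3 above 1 TPM in blue points with Flt3. Of the 22 red points 20 have no Flt3 above 1 TPM, and these include cell 3 with Ctsg at 0. Cell 27, also red, has both Ctsg (463 TPM) and Flt3 (15.1 TPM).

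Over all 95 iHPCs the 3 genes most like each member in level were taken for the 7 members above 1 TPM in at least 10 of them. For Mpo they were Lbp (0.80), Cebpd (0.76) and Csf1r (0.74). For Elane they were Clec5a (0.85), a receptor of myeloid cells, Anxa3 (0.78) and Lbp (0.76). For Prtn3 they were Lmo2 (0.80), Afap1l1 (0.79) and Mef2c (0.78), the first and last being transcriptional regulators of early blood progenitors. For Ctsg they were Mcpt1, Mcpt-ps1 and Gata2 (0.88 each). For Lyz2 they were Hpgd (0.77), Igsf6 (0.75) and Pla2g7 (0.72), for Grn Lcp2 (0.68), Rnh1 (0.65) and Rac1 (0.62), and for Ly6c2 no gene exceeded 0.46 (Zfp62). These correlations pool 3 days. Within day 21 alone Ctsg correlated with Mcpt1 at 0.90 and with Gata2 at 0.88. Without day-17 cells 1 and 18 the value for Pla2g7 with Lyz2 was 0.56, and those for Mpo lay between 0.69 and 0.81.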

How the data were processed

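Single-cell polyA RNA-Seq libraries (Discover-sc WTA Kit V2, TruePrep library kit) had been reduced to 1 table of 23420 rows by 160 cells. Per the labels and the study's methods, the authors aligned reads to mm10 with HISAT2 2.1.0 and computed the deposited TPM values with StringTie 1.3.4. Column totals ran from 988686 to 999108 TPM. Read counts are not analysed here, so depth and counting precision per gene are unknown, and strand use is not given in the sources used here. TPM within a cell is relative, so abundant proteases lower the other genes of that cell. Fractions of cells with a gene can also reflect how much RNA a cell held.

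Values were handled as log2(TPM + 1) with a detection threshold of 1 TPM (Python 3.11.15, numpy 2.4.6, pandas 2.3.3, scipy 1.17.1). Differences between consecutive groups were taken relative to the median difference of genes above 1 TPM in more than 30 cells and called at 1 on the log2 scale. Correlations were Pearson's across cells, without p-values, since each group is 1 sample. A share of 0 is limited by 3 cells of the total. No cell was removed and no doublet caller was run. The 4 rows that share a name were kept apart. The ranking and calls were tested on simulated data. Near-identical pairs and the cells against their gate were set aside in alternatives, as were other pseudocounts (0.1 and 10), thresholds and scalings. Genes named were the 10 members, Flt3, the members of 23 gene lists, and the closest correlates in day-14 cells and over all iHPCs; the genes that characterize the cells standing apart (Pou5f1, Krt8, Ptprc) were named after their values were seen. All 10 members matched a RefSeq promoter entry, and the windows of Mpo, Elane, Prtn3 and Ctsg were found at the start of a GENCODE transcript. The members and the lists were chosen with earlier results of these data known. The series' design text and the study's methods name different sequencers.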

Additional observations from a re-analysis of the deposited data

How the results depend on the processing

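Replacing the pseudocount, scaling, filter or cells moved mainly the counts of members called. From iHECs to day 14 the number lower (1) became 4 with a pseudocount of 0.1, 0 with 10, and 3 without the 5 cells with few genes. Ctsg and S100a9 were at 0 in both groups, so their relative difference of -0.93 is the subtracted shift alone. A shift of 1 or more calls such silent genes lower. Shares of all rows were taken for the main setting only, so the counts in this paragraph have none beside them. Taken without the reference filter or without subtracting the median difference, 5 members were higher and 0 lower, and the mean relative difference of the 10 members, 0.95, became 1.88; with log2 of the mean TPM it was 2.1. From day 14 to day 17 the mean, -0.68, became 0.99 with log2 of the mean TPM, where 4 were higher and 1 lower. The number higher (2) was 0 with a pseudocount of 10, 1 without the cells with few genes, and 0 without day-17 cells 1 and 18, where 5 were lower. From day 17 to day 21 the mean, -0.05, became -2.18 with log2 of the mean TPM, with 5 lower. The number lower (2) was 4 without the filter or the median, the number higher (1) was 3 with a pseudocount of 0.1, and without day-17 cells 1 and 18 the numbers were 2 higher and 1 lower. At this step S100a8 and S100a9 were at 0 in both groups, and their relative difference of 0.74 is again the subtracted shift alone. Log2 of a mean weights the few highest cells by construction. Over all rows the median difference was 0 at each step. Omitting the filter therefore equals omitting the subtraction, and both add back the median shift by arithmetic. The cause of the other shifts was not tested.

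For day-14 correlations, leaving out each cell in turn gave 0.41 to 0.72 for Mpo with Prtn3, 0.54 to 0.66 for Elane with Prtn3, -0.36 to -0.13 for Mpo with Lyz2, 0.58 to 0.75 for the granule mean with Flt3, 0.56 to 0.77 for Mpo, 0.63 to 0.77 for Prtn3 and -0.53 to -0.28 for Lyz2 with Flt3. Without the cell with few genes (15) Mpo with Prtn3 was 0.72. By rank (Spearman) the granule mean with Flt3 was 0.50 and Prtn3 with Flt3 0.52. Without the cells that went against the gate (4 and 17), Mpo with Prtn3 was 0.30, Mpo with Lyz2 -0.46, and with Flt3 the granule mean was 0.46, Prtn3 0.54, Lyz2 -0.70 and Elane -0.045, Mpo being at 0.48. Without cells 4, 15 and 17 they were 0.71, -0.56, 0.34, 0.16, -0.62 and -0.27 in the same order, the change of sign for Elane included, and Mpo with Flt3 was 0.68. The alternatives that used these cells, near-identical pairs and the 2 day-17 cells were chosen after seeing the data. Of 521 further values for single genes and shares, 435 moved by less than the spread or interval, 84 by more, and 2 (Elane with Flt3, given above) were counted as changing sign. A change of sign was counted only for correlations and for relative differences of at least 1 in size. Smaller relative differences that changed sign are among the 435 and 84. For example, Ms4a3 from iHECs to day 14 was at -0.06, and at 0.87 without the median subtracted. No paired analysis was possible because the numbers in the labels only name cells, and no test was run. With 18 to 65 cells per group and no depth, a share of a few percent could not be told from 0.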
